A study of Mus musculus with 12 samples.

Results

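The Hox genes of mouse were analysed in RNA-Seq libraries of NE-4C cells, a line of neural progenitor cells taken from mouse embryonic brain at E9 and immortalized by loss of p53. Members were all genes named Hoxa, Hoxb, Hoxc or Hoxd followed by a number, without antisense or other noncoding transcripts. These are 39 genes of the 57010 in the table, with 11 in HoxA, 10 in HoxB, 9 in HoxC and 9 in HoxD. All 39 had at least 1 count in a library, and 18 passed the filter on low counts with which 16502 genes were tested. The 4 groups of 3 libraries were WT NO (WT cells without treatment), WT RA (WT cells given all-trans retinoic acid, RA, at 1 µM for 24 h, then basal media until collection on day 3), KO NO (Faf2 KO cells without treatment) and KO RA (Faf2 KO cells given the same RA course). All 4 groups share the NE-4C background without p53. The KO cells come from 1 picked line in which exon 4 of Faf2 was deleted with CRISPR, so the deletion and other features of that line cannot be told apart. NO cells were collected on day 0 and RA cells on day 3, so RA and the days in culture cannot be told apart either. Libraries of a group are separate passages of the line.

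Hox genes encode homeodomain transcription factors that give cells of the body axis, including the hindbrain and spinal cord, their position. Mammals carry them in 4 clusters on different chromosomes, and genes at the same place in each cluster form a paralog group, numbered from the 3′ end of the cluster (group 1) to the 5′ end (group 13). Low-numbered genes are switched on earlier and reach farther forward in the embryo than high-numbered ones, and those at the 3′ end respond first to RA, which acts through nuclear receptors (RAR with RXR) on direct repeats in DNA. Polycomb proteins hold silent Hox clusters in a repressed state, and Hox proteins bind DNA together with TALE homeodomain cofactors (Pbx, Meis).

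The libraries held 17370069 to 30738717 counts. Levels are given as CPM, counts scaled to library size with TMM factors, and since the counts were corrected for gene length they can be compared between genes. In 11 libraries the TMM factor was 0.872 to 1.28 and 3 counts came to between 0.0838 and 0.145 CPM. Replicate 3 of KO RA stood apart: its factor was 0.394, 3 counts there came to 0.297 CPM, and its levels lay a median of 0.987 on the log2 scale from the mean of its group's other libraries, against 0.159 to 0.559 in the rest. Results that rest on it are given with and without it. Faf2 itself stood at 36.0 to 50.01 CPM in WT NO, 35.1 to 49.1 in WT RA, 21.0 to 25.4 in KO NO and 18.7 to 36.1 in KO RA. Between untreated genotypes its log2 fold change, KO to WT, was −0.87 ± 0.27 (SE; edgeR adjusted p = 0.179), and between treated ones −0.45 ± 0.27 (0.395). Reads outside the deleted exon still count toward the gene, so this level does not check the deletion. Of the neural progenitor markers, Nes (31.3 to 75.0 CPM), Sox2 (23.7 to 101 CPM) and Vim were present in all 12 libraries and Hes5 was near 0 in most. Pou5f1, a gene of pluripotent cells, stood at 800 to 2780 CPM.

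In untreated cells, 23 of 39 Hox genes in WT NO and 19 of 39 in KO NO had at most 3 counts in every library of the group, as had 15 in WT RA and 19 in KO RA. At the other end, 10 of 39 genes in WT NO and 7 of 39 in KO NO had over 3 counts in every library of the group, against 19 in WT RA and 16 in KO RA. Those of WT NO included Hoxb1, Hoxb9, Hoxb13, Hoxc4, Hoxd1, Hoxd3, Hoxd4, Hoxd8 and Hoxd13. In WT RA the gain was in HoxA (1 to 5 genes) and HoxB (3 to 8 genes), with HoxC going from 1 to 2 and HoxD from 5 to 4. In KO RA, HoxA likewise went from 1 to 5, HoxB from 2 to 5 and HoxD from 3 to 5, with 1 gene of HoxC in both. A set of 12 genes, Hoxa6, Hoxa10, Hoxa11, Hoxa13, Hoxc8 to Hoxc12 and Hoxd10 to Hoxd12, stayed at or under 3 counts in each of the 12 libraries, and no change of these was detectable at this depth.

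**Figure D1:**
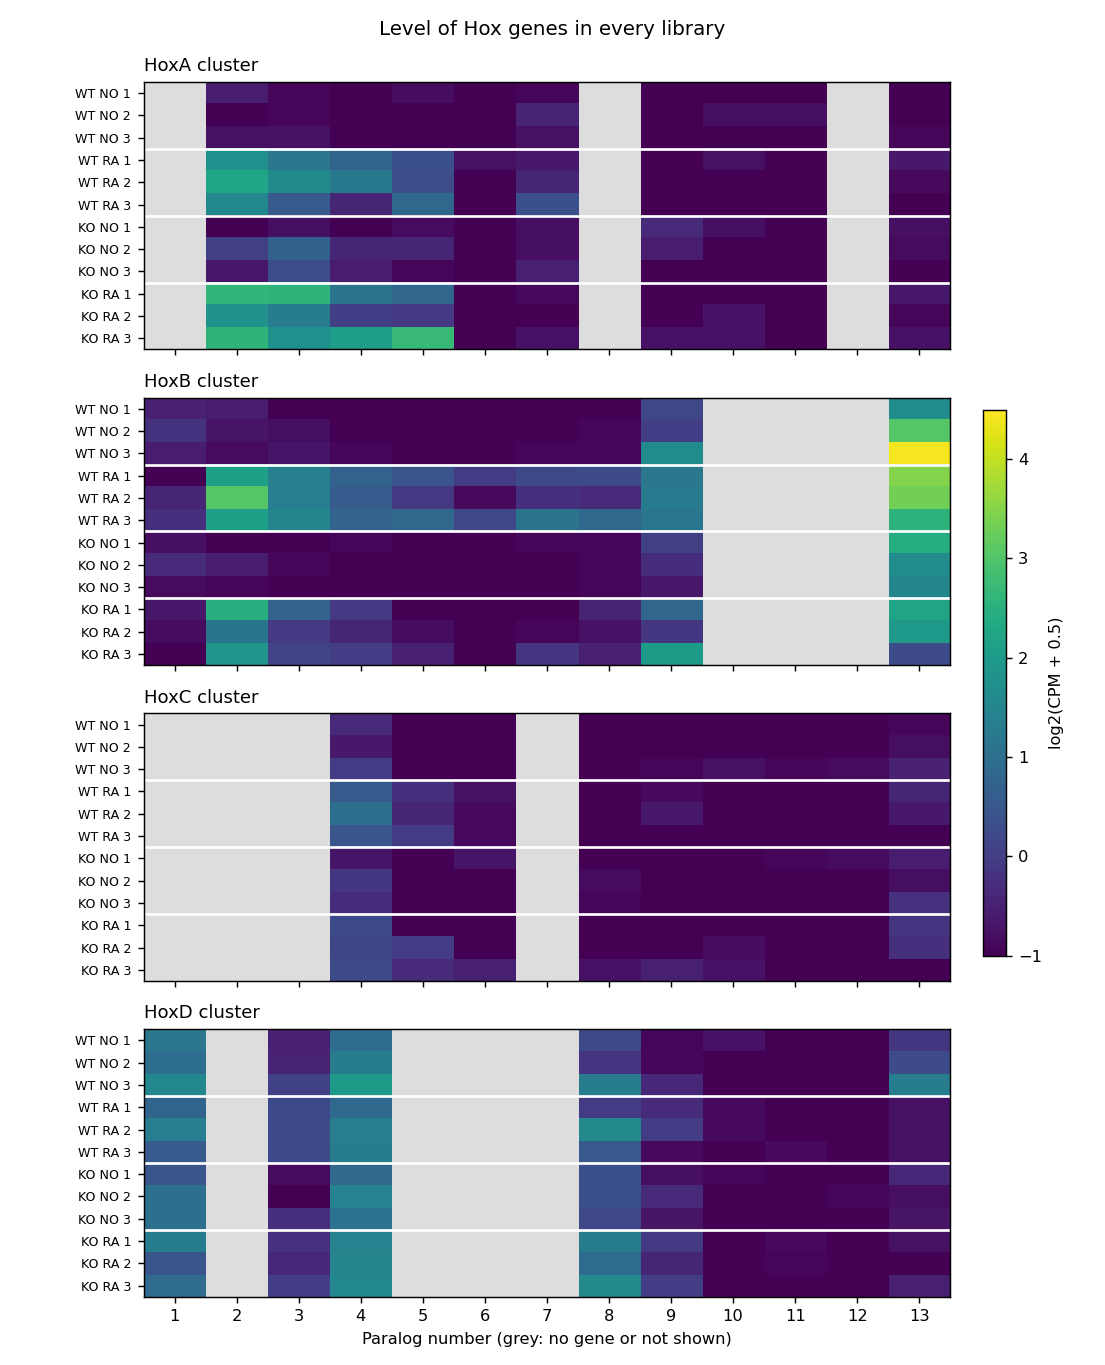
Level of 38 Hox genes in each of the 12 libraries as log2(CPM + 0.5), with one panel per cluster, paralog number on the x axis and libraries on the y axis. The left side of HoxA and HoxB is dark in WT NO and KO NO and lighter in WT RA and KO RA, paralogs 5 to 8 of HoxB are lighter in WT RA than in KO RA, and Hoxb13 is brightest in replicate 3 of WT NO (20.9 CPM).

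Summed levels show the size of this shift. Over HoxA, the sum was 0.641 to 0.951 CPM in WT NO and 6.26 to 11.8 CPM in WT RA, and 2.61 to 6.01 CPM in KO NO and 7.56 to 22.8 CPM in KO RA. The treated ranges overlap. Paralogs 1 to 4 of HoxB summed to 0.387 to 0.554 CPM in WT NO and 7.16 to 11.1 CPM in WT RA, and to 0.0838 to 0.504 CPM in KO NO and 2.45 to 6.68 CPM in KO RA. Here the KO RA range lay below that of WT RA. Paralogs 5 to 8 of HoxB summed to at most 0.061 CPM in every untreated library of either genotype, to 1.12 to 4.87 CPM in WT RA and to 0.204 to 0.793 CPM in KO RA. HoxD was at 4.65 to 10.8 CPM in WT NO and 4.13 to 7.90 CPM in WT RA, which overlap, and at 3.46 to 4.95 CPM in KO NO and 5.14 to 7.63 CPM in KO RA, which do not. Fewer cells with an active cluster and less RNA per cell cannot be told apart in such bulk samples. Sums over members carry no test.

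The clusters hold letters that RA receptors are known to bind, and those past the starts of Hoxb1 and of the group 4 genes are shown because they share their half-sites. Direct repeats with 5 bases between their half-sites were searched on both strands of GRCm39 over each cluster with 20 kb on each side. The half-sites searched had the letters AGTTCA or the letters AGGTCA, or else GGTTCA and likewise GGGTCA. HoxA held 3 and HoxB 3, which is 2.065 and 1.402 per 100 kb, HoxD held 1 (0.731 per 100 kb) and HoxC none, against 0.352 per 100 kb over the genome. Repeats with 2 bases between the half-sites numbered 2 in HoxA, 1 in HoxB and 0 in HoxC and HoxD, with 1.04 per 100 kb over the genome. The sites below are written 5′ to 3′ with both half-sites in capitals. The first lies at chr11:96263602-96263618 on the plus strand, 7.0 kb past the start of Hoxb1 and in no annotated gene. The other 3 shown lie downstream of the group 4 paralogs: at chr6:52152513-52152529 on the minus strand, 16.2 kb past the start of Hoxa4 and in an intron of Hoxa3, at chr11:96232062-96232078 on the plus strand, 23.0 kb past the start of Hoxb4 and in an intron of Hoxb3, and at chr2:74571884-74571900 on the plus strand, 14.5 kb past the start of Hoxd4, where an exon of a Hoxd3 transcript is annotated. For that last one only the site itself is given.
Past Hoxb1: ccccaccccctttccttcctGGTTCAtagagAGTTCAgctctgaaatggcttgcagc
Past Hoxa4: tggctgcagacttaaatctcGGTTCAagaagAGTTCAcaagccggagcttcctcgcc
Past Hoxb4: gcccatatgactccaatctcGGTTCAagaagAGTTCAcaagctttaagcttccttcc
Past Hoxd4: GGTTCAagcagAGTTCA

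All 4 have the same pair of half-sites in the same order because they were chosen for it, so their agreement is no result. A site 17.7 kb past the start of Hoxb13 has others, and the remaining sites of HoxA are not reported here. The windows past Hoxa4 and Hoxb4 are identical in 38 of 57 bases, with 28 identical bases in a row around the site, and the site past Hoxd4 shares 16 of 17 bases with both. Of the Hox promoters, 0 of 39 Hox promoters (250 bases before to 50 after the start of the main transcript) held such a repeat with a spacer of 1, 2 or 5, and 0.382% of 21757 promoters of all genes did, so that a count of 0 is close to the background. The letters TGATNNAT, which Pbx and Hox proteins bind together, were searched on both strands of the same windows and stood in 11 of 39 Hox promoters (among them those of Hoxa2, Hoxa7, Hoxb1, Hoxb2, Hoxb3, Hoxb5, Hoxb7, Hoxb8, Hoxb9 and Hoxc11) and in 7.64% of all promoters. A match is a description of letters and not of binding.

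The comparison of WT RA with WT NO asks which Hox genes RA moves in cells with Faf2. Genes of paralog groups 2 to 5 in HoxA and 2 to 8 in HoxB were near 0 before RA and detected after it. In 15 of 39 Hox genes every WT RA library lay above every WT NO library, against a background of 10.3% of the 28864 genes with a count. These were Hoxa2 to Hoxa5, Hoxb2 to Hoxb8, Hoxc4 to Hoxc6 and Hoxd3. In the fit of all 12 libraries, 2 of the 18 Hox genes tested were called higher (Hoxb2 and Hoxb4; edgeR, adjusted p under 0.05 over all genes) and 0 lower, where 0.321% of all genes tested were called higher. Without replicate 3 of KO RA, 10 of 23 Hox genes tested were called higher (Hoxa2 to Hoxa5, Hoxb2 to Hoxb5, Hoxb7 and Hoxb8), beside 5.65% of all genes. DESeq2 called 10 higher and 1 lower (Hoxd13) with all libraries (background 2.64% higher) and limma-voom 9 higher and 1 lower (Hoxd13; background 10.8% higher). The median log2 fold change was 1.51 over the 18 tested members and −0.01 over all genes tested. It covers genes that had to be detected in some group to be tested. With members at 0 in WT NO set to a bound of 3 counts over the group, it was still 1.51. Without KO RA replicate 3 the filter passed 23 members and the median was 4.84. Hoxb6 to Hoxb8, among the added members, passed mainly through their level in WT RA, the group tested. Hoxa4, Hoxb5, Hoxb6 and Hoxc5 had 0 counts in WT NO, so their fold changes have no finite value. The 4.84 is therefore no measure of the response.

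Hoxb2, a regulator of hindbrain segment identity, had the lowest p. Its level was 0.176, 0.111 and 0.061 CPM in the WT NO libraries and 3.89, 7.76 and 3.77 CPM in WT RA. The groups do not overlap, and the log2 fold change was 5.43 ± 0.87 (SE; edgeR adjusted p = 0.0339). Hoxb4 was at 0, 0 and 0.0305 CPM in WT NO, the last from a single count, and at 1.15, 1.02 and 1.19 CPM in WT RA. WT RA replicates were close to each other for this gene, with a mean of 1.12 ± 0.0921 CPM (SD, n = 3), and the log2 fold change was 6.16 ± 1.05 (edgeR adjusted p = 0.0368). With any 1 of the WT NO or WT RA libraries left out, or replicate 3 of KO NO, 0 Hox genes were called, in fits that called 0 to 16 genes in all, and without replicate 2 of KO NO or replicate 1 or 2 of KO RA 1 was, while the direction stayed for both genes.

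Hoxb3, Hoxa2 and Hoxa3 did not pass in the fit of all libraries but passed without KO RA replicate 3. Hoxb3 stood at 0, 0.0739 and 0.122 CPM in WT NO and at 2.12, 2.04 and 2.34 CPM in WT RA (log2 fold change 4.93 ± 0.92; edgeR adjusted p = 0.0530, and 0.00998 without KO RA replicate 3). Hoxa2, which patterns the second branchial arch and the hindbrain, stood at 0.176, 0 and 0.0916 CPM in WT NO and at 2.88, 4.27 and 2.48 CPM in WT RA (5.08 ± 1.10; 0.0793 and 0.0167). For Hoxa3, which is needed for structures of the pharynx and neck, the levels were 0.0352, 0.0370 and 0.0916 CPM before and 1.78, 2.57 and 1.00 CPM after RA (4.88 ± 0.92; 0.0533 and 0.0120). In each of these genes no WT RA library came near the WT NO range. Of the exonic bases of Hoxb3, 51.5% lie opposite the antisense gene Hoxb3os, as do 29.7% of those of Hoxb2, and 22.2% of those of Hoxa3 lie opposite other antisense genes. The counting setting for strand was not stated, so reads of these genes and their antisense partners cannot be told apart here.

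Farther along the clusters transcripts were detected in WT RA at lower levels. Hoxa4 was at 0 in all WT NO libraries and at 1.20, 1.84 and 0.239 CPM in WT RA, at least 32.1-fold higher than 3 counts over the WT NO group would give (edgeR adjusted p = 0.111, and 0.0257 without KO RA replicate 3). Hoxa5 stood at 0.0704, 0 and 0 CPM in WT NO and at 0.769, 0.728 and 1.29 CPM in WT RA (log2 fold change 5.08 ± 1.34; adjusted p = 0.142 and 0.0244). In HoxB, Hoxb5 was at 0 in WT NO and at 0.865, 0.436 and 1.29 CPM in WT RA, at least 25.5-fold higher on the same scale (adjusted p = 0.117 and 0.0331). Hoxb6 went from 0 in all WT NO libraries to 0.481, 0.0485 and 0.621 CPM, the middle value from 1 count. Hoxb7 went from 1 count in the whole WT NO group to 0.673, 0.340 and 1.67 CPM (adjusted p = 0.0255 without KO RA replicate 3) and Hoxb8 from 2 counts to 0.721, 0.291 and 1.29 CPM (0.0196). The last pair did not pass the filter in the fit of all libraries. Replicate 3 of WT RA held the highest level of all of Hoxb5 to Hoxb8, and replicate 2 the lowest.

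**Figure D2:**
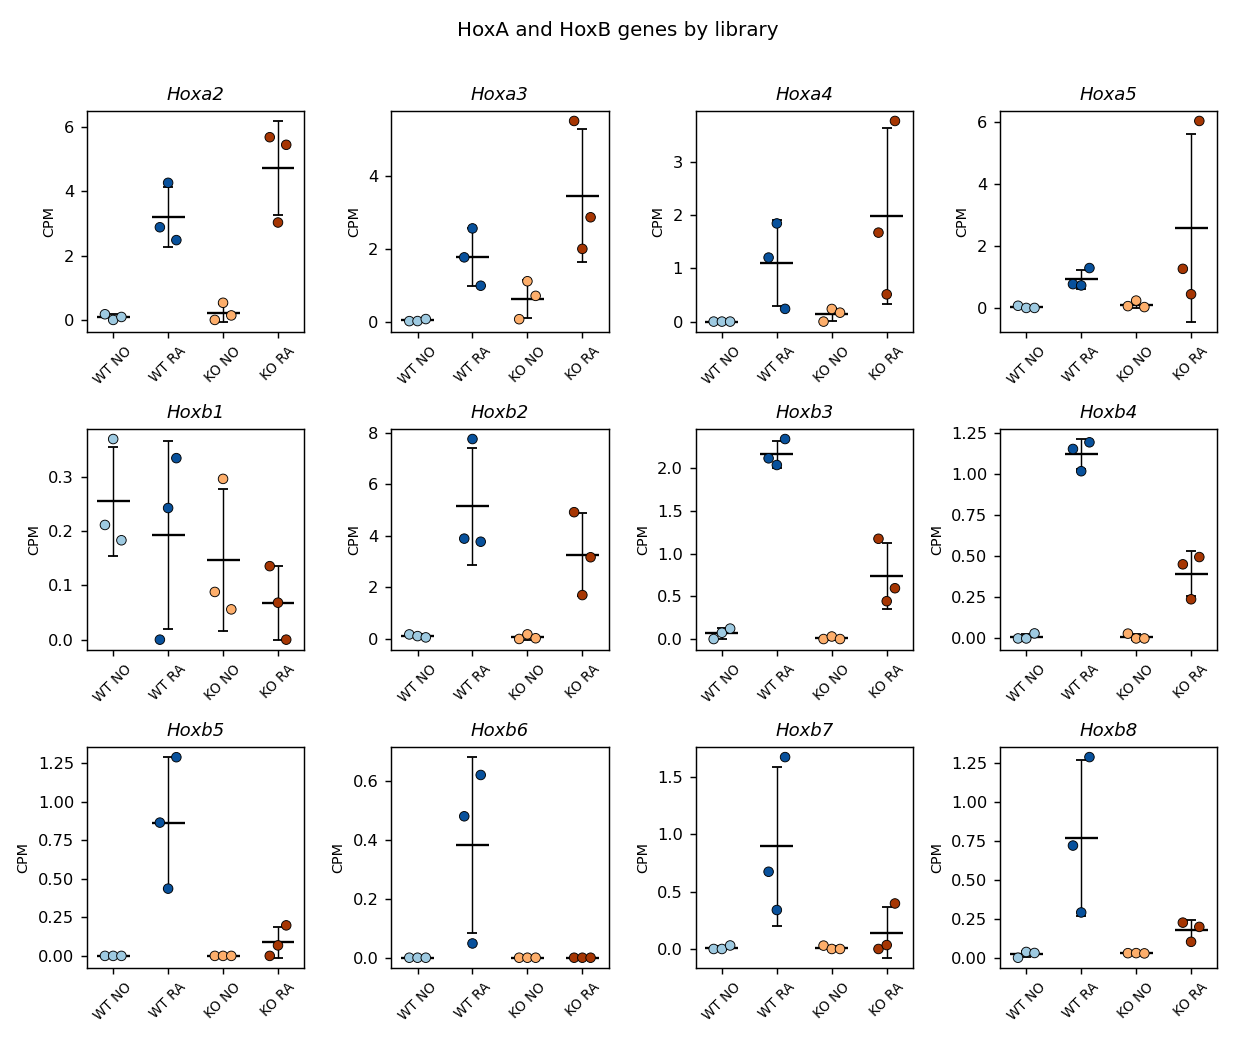
CPM (y axis) of 12 Hox genes in each library of the 4 groups (x axis), with the mean as a bar and the SD as a whisker (n = 3). Points of the RA groups lie above those of the NO groups for Hoxa2 to Hoxa5 and Hoxb2 to Hoxb4 in both genotypes, Hoxb5, Hoxb7 and Hoxb8 are highest in WT RA, and Hoxb1 stays at or below 0.370 CPM.

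Hoxb1, which defines one segment of the hindbrain, stood at 0.211, 0.370 and 0.183 CPM in WT NO, at 0, 0.242 and 0.334 CPM in WT RA, at 0.0879, 0.296 and 0.0558 CPM in KO NO and at 0.135, 0.0681 and 0 CPM in KO RA. It did not pass the filter on low counts. Earlier times after RA were not analysed here.

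In KO cells the same comparison, KO RA against KO NO, asks which Hox genes RA moves without intact Faf2. Every KO RA library lay above every KO NO library in 10 of 39 Hox genes (Hoxa2 to Hoxa5, Hoxb2 to Hoxb4, Hoxb8, Hoxc4 and Hoxd8), against 9.26% of the genes with a count. Of the 18 tested, 5 were called higher (Hoxa2, Hoxa5, Hoxb2, Hoxb3 and Hoxb4) and 0 lower, against a background of 3.89% called higher. Without replicate 3 of KO RA, 4 of 23 were called higher (the same genes without Hoxa5; background 8.48%), DESeq2 called 8 with all libraries (background 9.51%), and limma-voom called 6 (background 15.1%). The median log2 fold change over the 18 was 1.88, or 1.44 with Hoxb5 set to its bound, and 0.11 over all genes tested, and without KO RA replicate 3 it was 1.22 over 23. Hoxb2 and Hoxb4 were called in both genotypes.

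Hoxb2 again had the lowest p of the family. It stood at 0, 0.178 and 0.0279 CPM in KO NO and at 4.92, 1.70 and 3.17 CPM in KO RA (log2 fold change 5.49 ± 0.89; edgeR adjusted p = 0.00703), and its call held in 19 of the 20 alternatives that gave a value. Hoxb3 was at 0, 0.0296 and 0 CPM and reached 1.17, 0.443 and 0.595 CPM (5.69 ± 1.06; adjusted p = 0.0131). Hoxb4 was at 0.0293, 0 and 0 CPM and reached 0.451, 0.238 and 0.496 CPM (4.77 ± 1.03; 0.0241). Each of the last pair rests on 1 count over the KO NO group. All 3 genes were separate from their untreated libraries.

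On the HoxA side, Hoxa2 stood at 0, 0.533 and 0.140 CPM in KO NO and at 5.69, 3.03 and 5.45 CPM in KO RA (log2 fold change 4.37 ± 1.01; edgeR adjusted p = 0.0332). Hoxa5 stood at 0.0586, 0.237 and 0.0279 CPM in KO NO and at 1.26, 0.443 and 6.05 CPM in KO RA (4.503 ± 1.18; adjusted p = 0.0499). Its highest value is that of replicate 3, and without that library the log2 fold change was 2.92 and the adjusted p 0.0880. Hoxa3 stood at 0.0879, 1.13 and 0.726 CPM in KO NO and at 5.51, 2.01 and 2.87 CPM in KO RA (2.41 ± 0.76; 0.0894), and Hoxa4 at 0, 0.237 and 0.168 CPM and at 1.67, 0.511 and 3.77 CPM (3.81 ± 1.22; 0.107). In both of these the groups do not overlap, but the test was not passed. Without KO RA replicate 3 the log2 fold change was 2.52 for Hoxa3 and 2.96 for Hoxa4 (edgeR adjusted p = 0.0564 and 0.141).

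Hoxb5 to Hoxb8 were at or near 0 in KO RA. Hoxb5 was at 0, 0.0681 and 0.198 CPM in KO RA, from 0, 2 and 2 counts, and at 0 in KO NO. Hoxb6 was at 0 in all KO libraries, with and without RA. Hoxb7 was at 0, 0.0341 and 0.397 CPM in KO RA and Hoxb8 at 0.226, 0.102 and 0.198 CPM, with at most 0.0296 CPM of either in KO NO. Values of 0.198 and 0.397 in replicate 3 come from 2 and 4 counts, since that library is scaled up most.

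**Figure D3:**
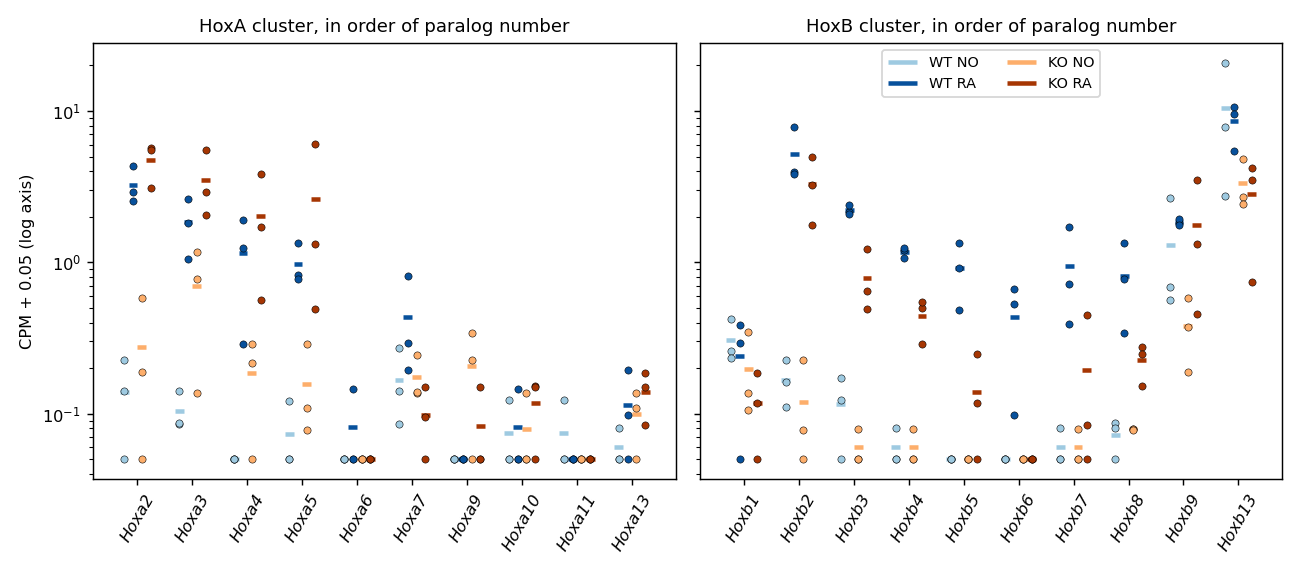
CPM + 0.05 on a log axis for HoxA genes (left) and HoxB genes (right) in order of paralog number, with points for libraries and bars for group means (n = 3). After RA the KO RA and WT RA points overlap from Hoxa2 to Hoxa5, the KO RA points lie below those of WT RA from Hoxb3 to Hoxb6, and Hoxb9 and Hoxb13 are present in all groups.

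Whether the RA response differs between genotypes was tested directly, and no Hox gene passed. The difference of the 2 responses gave 0 calls among all 16502 genes in edgeR (0% called), and 0 of the 18 Hox genes had an unadjusted p under 0.05. Without KO RA replicate 3, 1.34% of all genes were called and 0 of 23 Hox genes. DESeq2 (1.52% of all genes called) and limma-voom (5.97%) also called 0 Hox genes. The values with the lowest p were those of Hoxa3, with a log2 difference, KO minus WT, of −2.47 ± 1.13 (edgeR adjusted p = 0.582), and of Hoxa4 (−4.05 ± 2.05; 0.629). Hoxa4 had 0 counts in every WT NO library, so its WT response has no finite value and the size of its difference is not fixed by the counts. Hoxb5 had 0 counts in every untreated library of both genotypes, so neither of its responses has a finite value. The edgeR test could therefore not call its difference, whatever its size. The same holds for Hoxb6 and Hoxc5 in the fit without KO RA replicate 3. With all libraries, Hoxb6 to Hoxb8 did not pass the filter, so their difference was not tested. In Hoxb2 the difference was 0.06 ± 0.74 and in Hoxa2 −0.72 ± 1.34. A p that misses the threshold at errors of this size does not show that the responses were alike.

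Treated cells of the 2 genotypes can also be compared as they stand, KO RA against WT RA. In 9 of 39 Hox genes (Hoxa7, Hoxb3, Hoxb4, Hoxb5, Hoxb6, Hoxb8, Hoxb13, Hoxc4 and Hoxd3) every WT RA library lay above every KO RA library, against a background of 7.29%, and in 1 (Hoxd4) the reverse held, against 6.92%. Of these, 5 are HoxB genes of groups 3 to 8. In edgeR 0 of 18 Hox genes were called, where 1.24% of all genes were, and 2 had an unadjusted p under 0.05 (Hoxb5 and Hoxb13, both lower in KO RA). Without KO RA replicate 3 the count was 0 of 23 (background 9.85%), and DESeq2 called 0 as well (background 7.19%). The fit of limma-voom, which weights libraries by quality, called Hoxb3, Hoxb4 and Hoxb5 lower in KO RA (background 18.1%). The log2 fold changes in edgeR were −1.54 ± 0.77 for Hoxb3, −1.52 ± 0.79 for Hoxb4 and −3.46 ± 1.20 for Hoxb5, with adjusted p of 0.322, 0.335 and 0.222. Group means were 2.16 ± 0.158 CPM in WT RA and 0.737 ± 0.386 CPM in KO RA for Hoxb3 (SD, n = 3), and 0.864 ± 0.427 and 0.0888 ± 0.101 CPM for Hoxb5. The separation of Hoxb3 to Hoxb6 thus held in every library, and only 1 of the 3 tools called it for 3 of those genes. For Hoxb6 the separation rests on 1 count in replicate 2 of WT RA. Hoxb6 did not pass the filter of edgeR or limma-voom with all libraries, so neither could call it.

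Before RA, the comparison of KO NO with WT NO asks how the genotypes differed without treatment. Hoxa3 stood at 0.0879, 1.13 and 0.726 CPM in KO NO and at 0.0352, 0.0370 and 0.0916 CPM in WT NO (3.43 ± 0.90; 0.110 and 0.0443), where the lowest KO NO library overlaps the WT NO range. In the fit of all libraries 0 of 18 Hox genes were called between KO NO and WT NO, where 1.14% of all genes were, and at an unadjusted p below 0.05 there were 3 with higher and 3 with lower values in KO. Without KO RA replicate 3 it was 2 of 23, Hoxa3 among them (background 8.78%). DESeq2 called the same 2 with all libraries (background 4.65%), and limma-voom called 1 higher and 1 lower, the latter Hoxd13 (background 21.6%). In 1 of 39 genes every KO NO library lay above every WT NO library (background 10.3%), and in 1, Hoxd13, every one lay below (background 9.82%).

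Of the posterior genes, Hoxb9, Hoxb13 and Hoxd13 had over 3 counts in every WT NO library, and Hoxb9 and Hoxb13 in every KO NO library. Most of the others stayed at or under 3 counts in all libraries. Hoxb13, the gene at the 5′ end of HoxB and the one most abundant in WT NO, stood at 2.71, 7.84 and 20.9 CPM in WT NO, 10.6, 9.51 and 5.40 CPM in WT RA, 4.77, 2.67 and 2.37 CPM in KO NO and 4.15, 3.44 and 0.694 CPM in KO RA. The WT NO libraries span a wide range with replicate 3 on top, and no comparison of this gene was called in edgeR. Hoxb9 stood at 1.78, 1.89 and 1.72 CPM in WT RA, at 0.527, 0.326 and 0.140 CPM in KO NO and at 1.26, 0.409 and 3.47 CPM in KO RA (2.32 ± 0.86 in KO; edgeR adjusted p = 0.135, and 1.304 and 0.299 without KO RA replicate 3). Replicate 3 was also the highest of WT NO for Hoxb9 (2.62 CPM, against 0.634 and 0.517), Hoxd8 (1.98 against 0.669 and 0.407) and Hoxd13 (1.98 against 0.423 and 0.702). Hoxd13, which shapes the digits and the end of the body axis, was the sole Hox gene that lay lower in every WT RA library than in every WT NO library (background 8.58%), at 0.0961, 0.0970 and 0.0955 CPM or 2 counts each. Its log2 fold change was −3.37 ± 1.01 with an edgeR adjusted p of 0.197, and DESeq2 and limma-voom called it. In KO NO it stood at 0.264, 0.0889 and 0.112 CPM.

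In HoxD and HoxC no gene was called after RA in edgeR with all libraries. Hoxd1 (0.879 to 2.47 CPM over the 12 libraries) and Hoxd4 (1.35 to 3.51 CPM) were present in all groups, and the adjusted p of both was at least 0.525 in each RA comparison. Hoxd8 stood at 0.762, 0.770 and 0.642 CPM in KO NO and at 1.99, 1.40 and 2.58 CPM in KO RA (log2 fold change 1.44 ± 0.68; edgeR adjusted p = 0.214), while in WT the ranges overlap. Hoxd3 stood at 0.211, 0.222 and 0.549 CPM in WT NO and at 0.673, 0.679 and 0.669 CPM in WT RA (1.02 ± 0.95; 0.747). Hoxd3 and Hoxd4 share transcribed bases on one strand, 38.2% and 51.97% of their exonic bases, and their counts are uncertain to that extent. In HoxC, Hoxc4 stood at 0.282, 0.148 and 0.488 CPM in WT NO and at 0.962, 1.503 and 0.860 CPM in WT RA (1.83 ± 0.62; 0.245), and at 0.117, 0.415 and 0.307 CPM in KO NO and 0.677, 0.613 and 0.694 CPM in KO RA (1.22 ± 0.62; 0.236). Hoxc5 was at 0 in all 6 untreated libraries, at 0.337, 0.242 and 0.478 CPM in WT RA and at 0, 0.477 and 0.297 CPM in KO RA. The remaining members, Hoxa7, Hoxa9, Hoxc6, Hoxc13 and Hoxd9, did not exceed 0.764 CPM in any library.

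Noncoding transcripts of the clusters were counted from a list of 21, of which 18 were in the table and 6 passed the filter. Hotairm1, a transcript of the HoxA cluster, stood at 0.740, 0.185 and 0.0916 CPM in WT NO, 2.69, 4.85 and 0.764 CPM in WT RA, 2.75, 4.21 and 1.84 CPM in KO NO and 2.35, 4.63 and 21.6 CPM in KO RA. Every KO NO library was above every WT NO library (log2 fold change 3.11 ± 1.00; edgeR adjusted p = 0.201, and 0.0384 without KO RA replicate 3). Hoxaas2, antisense to Hoxa3, was at 0 in all untreated libraries and at 0.865, 0.679 and 0.812 CPM in WT RA and 0.542, 0.238 and 2.48 CPM in KO RA (adjusted p = 0.107 in WT and 0.0287 in KO). Of the 6 tested, Hoxaas2 in KO was the sole call of the list in edgeR with all libraries. Without KO RA replicate 3, Hotairm1 and Hoxaas2 were called higher in WT RA, and Hoxaas2 again in KO RA. The difference of the RA response between genotypes was called for none of the list in either fit.

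Hox cofactors of the TALE class were expressed throughout. All 9 listed were tested, and in WT RA 0 were called in either direction, while in KO RA 1 was called higher (Meis1) with a list median of 0.11, the same as that of all genes. Meis1 stood at 3.78, 2.37 and 3.02 CPM in KO NO and at 56.2, 30.8 and 38.2 CPM in KO RA (log2 fold change 3.77 ± 0.53; edgeR adjusted p = 0.00395), and at 10.2, 17.1 and 3.11 CPM in WT NO and 23.4, 29.8 and 25.7 CPM in WT RA (1.37 ± 0.48; 0.255). Pbx2 was lower in KO RA, at 39.1, 39.0 and 27.3 CPM, than in WT RA, at 70.8, 87.2 and 77.3 CPM (−1.16 ± 0.21; 0.0253). It was already lower before RA, at 30.7, 35.4 and 31.9 CPM in KO NO and 56.7, 50.9 and 45.3 CPM in WT NO. That untreated difference was called without KO RA replicate 3 and not with all libraries.

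Of 17 genes for RA receptors, direct targets and retinoid metabolism, 14 were tested. In WT RA 1 was called higher, Cyp26a1, the enzyme that degrades RA, and in KO RA 4 were called higher (Cyp26a1, Crabp1, Crabp2 and Stra6) and 1 lower (Dhrs3). When KO RA replicate 3 was left out, 5 were called higher in each genotype, with Cyp26a1, Crabp1, Stra6 and Tshz1 in both, Rarb in WT and Crabp2 in KO. The difference of the RA response between genotypes was called for none of these 6 genes. In that fit it was called for 1 other member, Dhrs3, with a lower response in KO. Dhrs3 was again called lower after RA in KO, and higher in KO NO than in WT NO. Cyp26a1 stood at 0.387, 0.296 and 0.366 CPM in WT NO and 1.49, 2.91 and 1.58 CPM in WT RA (log2 fold change 2.49 ± 0.39; edgeR adjusted p = 0.0339), and at 0.879, 1.27 and 0.670 CPM in KO NO and 9.21, 13.3 and 14.9 CPM in KO RA (3.72 ± 0.39; 6.20e-04). KO RA lay above WT RA for this gene (2.64 ± 0.37; 0.00970). Rarb, a receptor that RA induces, was not called with all libraries (log2 fold change 1.95 ± 0.47 in WT and 1.503 ± 0.46 in KO; edgeR adjusted p = 0.111 and 0.0824), and without KO RA replicate 3 it passed in WT (0.0241) and not in KO (0.0914).

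Among 11 tested of 15 listed upstream regulators of Hox genes, Zfp503 was called higher and T lower in both genotypes, and Gdf11 and Zfp703 were called higher in KO alone, a difference between genotypes that was not called in its own test. Without KO RA replicate 3 both were called higher in WT as well (edgeR adjusted p = 0.0487 and 0.0171). Zfp503 stood at 0.387, 0.111 and 0.732 CPM in WT NO and at 8.85, 20.4 and 8.84 CPM in WT RA (log2 fold change 4.91 ± 0.64; edgeR adjusted p = 0.0162). T, a mesodermal factor, stood at 83.3, 67.9 and 72.5 CPM in WT NO, 13.4, 23.0 and 13.3 CPM in WT RA, 38.3, 72.6 and 29.8 CPM in KO NO and 13.5, 8.04 and 7.93 CPM in KO RA. Egr2, which drives Hox genes in hindbrain segments, was not called. Cdx1 and Cdx2, activators of central Hox genes, stood at 0.703, 0.622 and 0.307 CPM and at 1.23, 1.51 and 1.20 CPM in KO NO, and at most at 0.0352 and 0.333 CPM in WT NO. Without KO RA replicate 3 both passed (adjusted p = 0.0428 and 0.0198), and with it they did not (0.146 and 0.135). In KO RA, Cdx1 stood at 0.316, 0.170 and 0 CPM and Cdx2 at 0.722, 0.750 and 0.0991 CPM. In WT RA, Cdx1 was at 0 and Cdx2 at 0.0481, 0.0485 and 0.143 CPM. Both were called higher in KO RA than in WT RA without KO RA replicate 3, and not with it. Their part in the Hox levels was not tested.

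The Polycomb list (30 genes, all tested) held 0 calls in WT RA and 2 in KO RA, where Bmi1 was higher (log2 fold change 2.05 ± 0.38; edgeR adjusted p = 0.0123) and Cbx7 lower (−1.58 ± 0.32; 0.0193). The other members did not pass, and the list median in WT was −0.04, against −0.01 over all genes tested. Without KO RA replicate 3, Bmi1 was called higher in WT RA as well, and Cbx2 lower. In KO RA, Bmi1 and Phc2 were then called higher and Cbx7, Rbbp4, Rbbp7 and Suz12 lower. The difference of the RA response, KO minus WT, was called in that fit for Phc2 (higher) and Cbx7 (lower). None of the 10 Trithorax genes and H3K27 demethylases was called in the 5 comparisons with all libraries. Of 12 genes of forebrain and midbrain identity, 9 were tested and 0 were called in WT RA, whereas Wnt1 and Emx2 were called higher in KO RA. With KO RA replicate 3 left out, Wnt1 was called higher in WT as well, and in KO Emx2, En1, En2 and Wnt1 were called higher and Otx2 lower. The difference of the RA response between genotypes was called in that fit for En1, higher in KO. Otx2 stood at 120 to 163 CPM in WT NO and 106 to 135 CPM in WT RA, and at 132, 162 and 161 CPM in KO NO and 82.0, 104 and 19.4 CPM in KO RA (log2 fold change −1.14 ± 0.46 in KO; edgeR adjusted p = 0.157, and −0.71 ± 0.18 and 0.0224 without KO RA replicate 3).

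Within 300 kb of the clusters 26 protein-coding neighbours were in the table and 18 were tested, of which 0 were called in WT RA and 1 in KO RA (Snf8, lower). The median log2 fold change of these neighbours was −0.18 in WT and −0.03 in KO, and 0 of the 18 were called in the other 3 comparisons with all libraries. Without KO RA replicate 3, 2 neighbours were called higher and 3 lower in WT RA and 1 higher and 3 lower in KO RA. In that fit Evx1, which flanks Hoxa13, was higher in KO NO than in WT NO (2.21 ± 0.56; edgeR adjusted p = 0.0364).

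Of the marker lists of other cell types, mesenchyme and neural crest held genes called higher after RA in both genotypes. Of 9 mesenchyme markers, all tested, 3 were called higher in WT RA (Col1a2, Col3a1 and Prrx1) and 4 in KO RA (with Col1a1). Without KO RA replicate 3 it was 5 in each genotype, with Col1a1 in both. Their levels below are for the whole list. The summed level of the 9 markers was 25.5 to 68.7 CPM in WT NO, 109.1 to 124 CPM in WT RA, 43.1 to 50.9 CPM in KO NO and 122 to 436 CPM in KO RA, and none was at or under 3 counts in all libraries. Of 6 neural crest markers 5 were tested, and Tfap2b was called higher in both genotypes and Ets1 and Snai2 in KO, with sums of 14.1 to 24.8 CPM in WT NO and 16.9 to 22.1 CPM in WT RA, and of 10.3 to 15.3 CPM in KO NO and 18.9 to 36.5 CPM in KO RA. Sox10, which defines that lineage, did not exceed 0.136 CPM in any library. The 5 paraxial mesoderm markers summed to 1.85 to 4.24 CPM in WT NO, 2.15 to 6.30 CPM in WT RA, 1.08 to 1.98 CPM in KO NO and 1.68 to 5.42 CPM in KO RA, with Msgn1 at 0 in all libraries and Meox1 called higher in KO. Without KO RA replicate 3, Meox1 was called higher in WT as well. In KO RA 3 of 4 endothelial markers tested (Emcn, Kdr and Tek), 2 of 8 neuronal markers (Map2 and Tubb3) and 5 of 10 neural progenitor markers were called higher, and 0 of each in WT RA. Leaving out KO RA replicate 3, the WT RA counts were 1 endothelial (Cdh5), 2 neuronal (Dcx and Map2) and 3 progenitor markers (Fabp7, Sox1 and Sox2), against 4, 3 and 6 in KO RA. Of the blood, endoderm and pluripotent markers 0 were called after RA in either genotype with all libraries, and without KO RA replicate 3 Nanog was called higher in WT RA and Gata4 and Sox17 in KO RA. The difference of the RA response between genotypes was called for 0 markers of these lists with all libraries, and for Cdh2, Msi1, Nes, Sox1 and Col1a2 without KO RA replicate 3. The part of these cell types in the Hox levels was not tested.

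**Figure D4:**
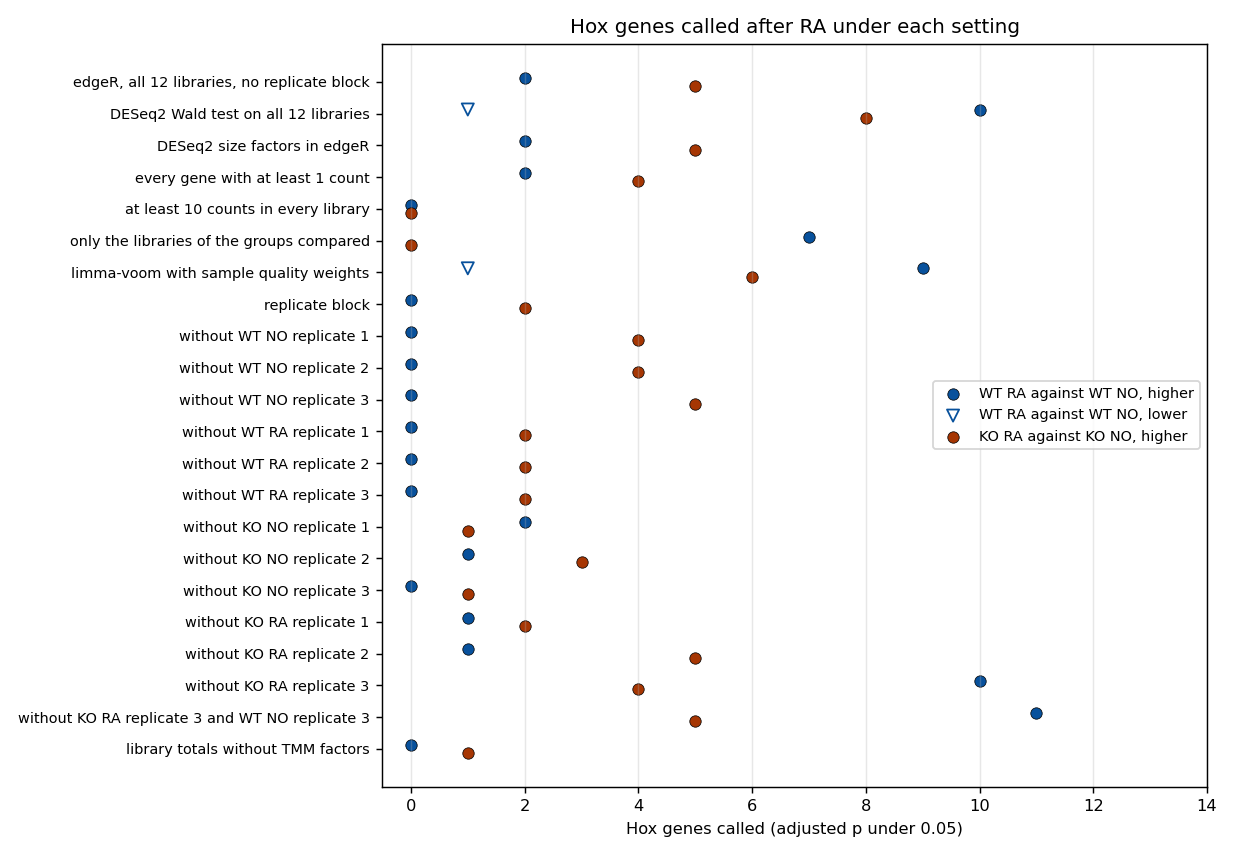
Number of Hox genes called at an adjusted p under 0.05 (x axis) after RA in WT and in KO under each of the settings (y axis), with filled points for genes called higher and open triangles for genes called lower. WT counts run from 0 to 11 and KO counts from 0 to 8, and leaving out replicate 3 of KO RA moves the WT count from 2 to 10.

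The counts of calls moved between settings while directions held for the genes called. Over these settings, the log2 fold change of Hoxb2 after RA stayed between 4.84 and 5.84 in WT and between 4.95 and 7.41 in KO. For Hoxa2 it stayed between 4.55 and 5.90 in WT and between 3.82 and 5.95 in KO, and for Hoxb3 between 4.38 and 5.79 and between 5.03 and 7.25.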

How the data were processed

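PolyA RNA of 12 cultures (3 per group) was sequenced in paired ends on a NovaSeq. The authors ran nf-core/rnaseq with default settings (STAR, Salmon; GRCm39, Ensembl annotation; DESeq2 is named for their tests) and deposited expected counts scaled for gene length, so a count is not a number of fragments. The setting for strand is not given in the sources used here. Each column was matched to its sample by group name and replicate number, the untreated columns carrying no NO tag.

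Counts were rounded and tested with the edgeR (4.0.16, R 4.3.3) quasi-likelihood test with robust fitting, TMM factors, filterByExpr and 1 coefficient per group over all 12 libraries. P-values were adjusted by Benjamini-Hochberg over all genes tested and called under 0.05. SE is that of the log2 fold change. DESeq2 1.42.0, limma-voom (limma 3.58.1), other filters and scalings, a replicate block and fits without each library were alternatives. Nothing says that replicates beyond passage are independent cultures of separate origin, so p-values measure the spread between passages of 1 line. The scripts were tested on simulated data.

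Members and lists were chosen with earlier results of these data known. Genes named beyond the members came from lists of cofactors, RA targets, regulators, chromatin factors, noncoding transcripts, neighbours and markers, by whether they were called or define the list. Repeats and promoters were read from the GRCm39 genome, with promoters placed at the canonical transcript starts of its annotation. Same-numbered libraries did not deviate together (correlations −0.215 to 0.0853 over 18 pairs). Results for a few genes are not reported here.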

Additional observations from a re-analysis of the deposited data

How the results depend on the processing

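Calls depended on the setting, and with them the calls over all genes. For RA in WT, where 2 Hox genes were called among 67 of 16502 genes, DESeq2 called 11 (781 of 16696 over all genes), limma-voom 10 (3562 of 16502), a fit of only the groups compared 7 (545 of 14705), and the fit without KO RA replicate 3 and WT NO replicate 3 (chosen after seeing the data) 11 (3097 of 16966). The replicate block gave 0 (10 of 16502), as did library totals without TMM factors (also chosen after seeing the data; 0 of 16502). Leaving out 1 library gave 0 to 10. With at least 10 counts in every library only 4 Hox genes were tested and genes near 0 before RA were removed, so its counts of 0 in WT and 0 in KO say nothing of stability. For RA in KO, where 5 were called among 904 genes, DESeq2 called 8 (2528 of 17210), the replicate block 2 (467 of 16502), library totals 1 (140 of 16502) and only the groups compared 0 (196 of 15307), and leaving out 1 library gave 1 to 5. The replicate numbers were not taken to pair the samples. For KO NO against WT NO, with 0 called, DESeq2, limma-voom and the fit without both libraries called 2, only the groups compared 1, and leaving out 1 library 0 to 2. For KO RA against WT RA, with 0 called, limma-voom called 3 and the fit without both libraries 1, and leaving out 1 library called 0. The difference of the responses gave 0 in every setting that was run. Of 573 alternative values for 29 single-gene results, 462 kept direction and side of the threshold, 60 lost the call, 49 gained it and 2 reversed: the difference of Hoxa2 without KO NO replicate 2 (0.87; leaving out 1 library gave −1.51 to 0.87) and of Hoxb4 without KO NO replicate 1 (0.21; −3.35 without both libraries), and the cause was not tested. The difference of Hoxb2, not among the 29, also changed sign (−0.47 to 1.98). Low counts limit what could be called.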
